A study of Mus musculus with 4 samples.

Results

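The cells described here are Paneth cells of the adult mouse intestine, taken from 1 unirradiated and 1 irradiated library. A cell was selected when it had at least 500 detected genes, at most 20% mitochondrial UMIs (unique molecular identifiers, which count captured RNA molecules) and at least 8000 UMIs, and when Lyz1, Defa24, Defa30 and Itln1 together made up at least 15% of its UMIs. This rule found 66 cells in the adult library and 89 in the irradiated adult library, 155 of the 22731 barcodes of the series. Among cells that passed the same filters on genes, mitochondrial share and depth, called deep cells below, they were 66 of 989 in the adult library (6.67%, exact Clopper-Pearson 95% interval 5.20 to 8.41) and 89 of 1731 in the irradiated one (5.14%, 4.15 to 6.29). With all cells removed that hold enteroendocrine markers at 1% or more of UMIs, the order turned, to 21.96% in the adult and 32.2% in the irradiated library. The rule found 0 of 3426 deep cells at embryonic day 12.5, with an exact upper limit of 0.108%, and 0 of 3054 at embryonic day 17.5, with an exact upper limit of 0.121%.

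All 4 libraries came from mice with the genotype Bmi1-GFP (a strain of the Jackson Laboratory, per the labels), a reporter placed at the Bmi1 locus, and the sequenced cells were epithelial cells isolated by flow cytometry. The 2 libraries compared are labelled adult and irradiated adult, with 1 library each. Irradiation dose and timing, animal numbers and sex, and the gates used in the sort are not given in the sources used here. Each group is 1 library, so animal, library preparation and irradiation cannot be told apart. No test between the libraries, p-value or standard error is given, and intervals cover counting error only.

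Paneth cells sit at the base of the small intestinal crypt, between the stem cells. They store antimicrobial proteins in large apical granules, among them alpha-defensins, lysozyme and lectins, and release them into the crypt lumen. They also make Wnt, EGF family and Notch ligands that stem cells respond to, and they arise from the same Atoh1-dependent secretory lineage as goblet and enteroendocrine cells. Radiation activates p53 in crypt cells, which switches on genes of cell cycle arrest and apoptosis.

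Depth differed between the libraries. The selected cells held a median of 41378 UMIs in the adult library and 99836 in the irradiated one, against 13986 and 13956 in the other deep cells. Their median mitochondrial share was 3.42% and 0.91%, and the 4 genes of the rule made up a median of 46.1% and 57.3% of a cell's UMIs. Levels are given as CPM, a cell's or group's counts scaled to 1000000 UMIs, so a change in the most abundant defensins shifts the CPM of every other gene. Barcodes shared between the 2 adult libraries numbered 7, and 0 of them were selected cells.

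The cells were chosen by their levels of the 4 genes of the rule, and these levels are a description only. Defa24, an alpha-defensin, stood at 288909 CPM in the adult library and 285609 in the irradiated one when UMIs were summed over cells. Defa30, a second alpha-defensin, stood at 134419 and 166420, Lyz1, the Paneth cell lysozyme, at 37052 and 58207, and Itln1, a lectin that binds microbial sugars, at 27923 and 38389. The lowest adult member had 18.8% of its UMIs in these genes and the next cell outside had 12.3%. In the irradiated library the nearest cells on either side of the threshold had 15.6% and 14.8%, so the cut ran through a continuous range there.

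Marker genes outside the rule were checked next. Mptx2, a pentraxin of Paneth cells, had a UMI in 66 of 66 adult and 81 of 89 irradiated cells, with summed levels of 7139 and 6729 CPM against 35.5 and 13.6 in the other deep cells. Ang4, an antimicrobial ribonuclease, had a UMI in all cells of both libraries and stood at 8895 and 4338 CPM, against 86.3 and 180 in the other deep cells. Mmp7, the protease that cuts alpha-defensin precursors into active peptides, stood at 1335 and 3139 CPM. The name Paneth cell is used for all 66 adult cells and for 75 of the irradiated cells. In the other 14 irradiated cells Mptx2 stood at 72.8 CPM and goblet cell products were abundant, and these are described apart as Defa29-low cells.

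Across the 5003 genes that reached 50 UMIs in 1 or both libraries, 549 (11.0%) were at least 2-fold higher in the irradiated cells and 265 (5.30%) at least 2-fold lower, where the log2 ratio compares the 2 libraries' CPM after adding 1 CPM to each. The median log2 ratio over these genes was 0.16. In cells of the same libraries marked as enteroendocrine by Chga and Chgb, the same shares were 2.61% and 1.74% of 11283 genes, and in all other deep cells 4.14% and 5.38% of 12409. The division between higher and lower depended on which cells were kept. Leaving out the 14 Defa29-low cells gave 8.15% higher and 10.1% lower, removing cells with the enteroendocrine marker list at 1% or more gave 8.86% and 8.51%, and leaving out adult cells with Olfm4 at 500 CPM or more, called Olfm4-rich, gave 53.5% and 0.428%, with the median of all genes at 1.05. With the defensins, Lyz1, Itln1 and mitochondrial genes also taken out of the total, called the changed total below, that last setting gave 16.2% higher and 2.12% lower. The cuts on Defa29 and Olfm4 were chosen after the values were seen.

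**Figure D1:**
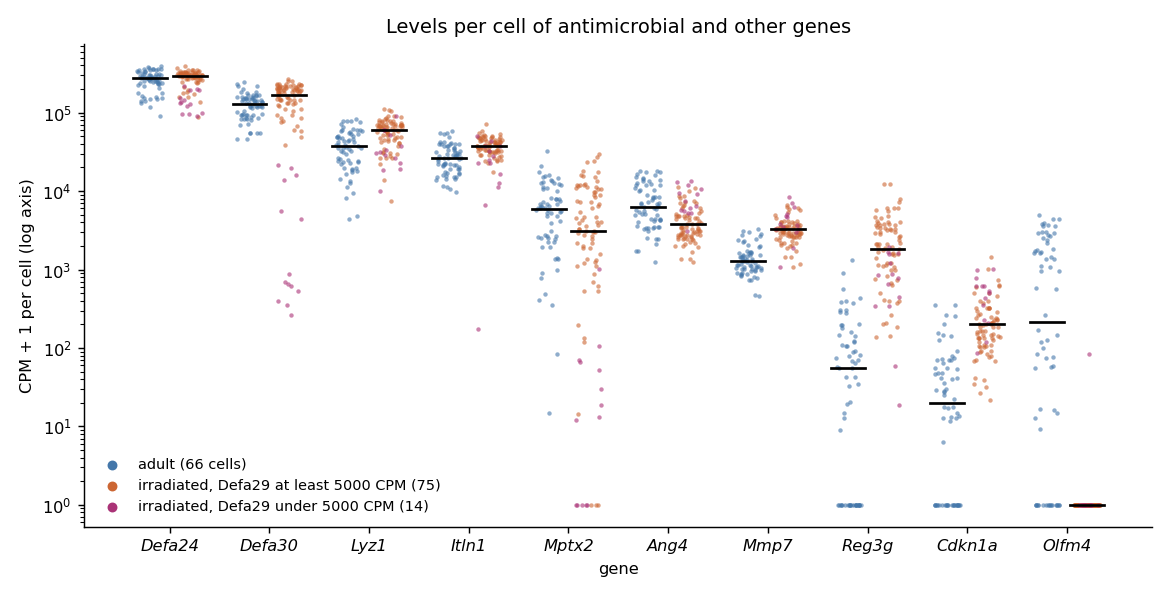
Level per cell of 10 genes, as CPM + 1 on a log axis, with 1 point per cell and a black bar at the median of each library. Defa24, Defa30, Lyz1 and Itln1 chose the cells; Mmp7, Reg3g and Cdkn1a sit higher in the irradiated cells, Olfm4 is above 0 in 49 of 66 adult cells and 1 of 89 irradiated cells, and the 14 Defa29-low cells lie far below the others in Defa30.

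Single alpha-defensins went in opposite directions. The 28 genes of the cluster took 659414 CPM of the adult cells and 634855 of the irradiated ones, a total largely set by the rule genes Defa24 and Defa30. The 26 genes outside the rule took 236086 and 182827 CPM, a log2 ratio of -0.37. With the Olfm4-rich adult cells left out and the changed total, the log2 ratio of the whole cluster was -1.11. Within the cluster, 10 of the 22 genes tested were at least 2-fold higher and 6 at least 2-fold lower, against 11.0% and 5.30% of all genes. The cluster lies at chr8:21025545-21735471 (GRCm38, annotation GENCODE M21), and it holds many near-identical copies whose counts can be split between genes. The unique share given below is taken over 50-base words in the last 300 bases of a gene's longest transcript. It is the share of these words that no transcript of any other annotated gene holds.

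Defa17 and Gm7861 were the abundant members that were lower. Defa17 ranged from 19615 through a median of 68217 to 129545 CPM over the adult cells, and from 1977 through 8434 to 15602 over the irradiated cells. The lowest adult cell was above the highest irradiated cell, and the summed level was 74623 against 9005 CPM (log2 ratio -3.05). Gm7861, named Defa43 in RefSeq, ranged from 10962 through 35025 to 72535 CPM in the adult cells and from 0 through 4473 to 9064 in the irradiated ones, again without overlap (log2 ratio -3.04). Defa3, whose transcript shares 88.8% of its words with Defa17, went from 7888 to 1539 CPM, with overlapping cells. Gm15292 (RefSeq Defa40) was lower at 2089 and 878 CPM, as was Defa28 at 75.2 and 34.4 CPM.

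Gm14851 was the abundant member that was higher. Named Defa38 in RefSeq, it ranged from 1147 through 4679 to 7956 CPM over the adult cells and from 0 through 56972 to 82999 over the irradiated cells. All 75 irradiated cells outside the Defa29-low group, with a lowest value of 10752 CPM, were above the highest adult cell. Its summed level was 5059 CPM in the adult and 51711 in the irradiated cells (log2 ratio 3.35). Defa34 went from 4.84 to 205 CPM and from 11 of 66 to 78 of 89 cells with a UMI. Defa21, Defa22, Defa23, Defa27, Defa35, Defa36, Gm15293 and Gm7849 were the other genes at least 2-fold higher, with log2 ratios from 1.15 for Defa35 to 3.22 for Defa27. Among them Defa23, Defa36 and Gm7849 also had a unique share of 0%. Defa29 (28938 and 32207 CPM), AY761184 (73529 and 72738 CPM) and Defa24, a gene of the rule, were within 2-fold over all selected cells. Their log2 ratios lay between -0.02 and 0.15. Over the alternative settings the log2 ratio of Defa24 lay between -1.06 and 0.05.

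The 3 abundant genes kept their direction and stayed past 2-fold under every alternative run. Over these settings the log2 ratio of Defa17 lay between -4.06 and -2.96, that of Gm7861 between -4.12 and -2.95, and that of Gm14851 between 2.22 and 3.48. In the other deep cells Defa17 stood at 398 and 97.5 CPM, Gm7861 at 138 and 39.2, and Gm14851 at 22.5 and 69.2. The unique share was 47.4% for Gm14851, 11.2% for Defa17 and 4.38% for Gm7861, which shares 92.8% of its words with Gm7849. By position, 7 of 11 tested genes that start before Defa29 were higher and 2 lower, while from Defa29 onward 3 of 11 were higher and 4 lower.

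**Figure D2:**
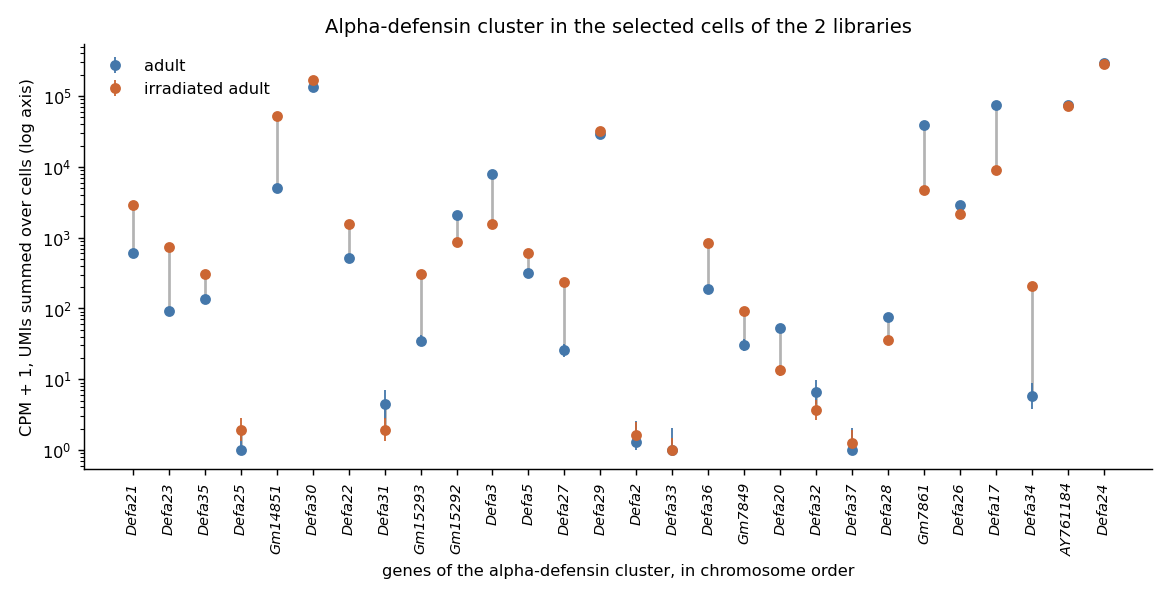
Summed level of each of the 28 genes of the alpha-defensin cluster, as CPM + 1 on a log axis, in the 66 adult and 89 irradiated cells, with exact Poisson 95% intervals. Defa17 and Gm7861 are lower and Gm14851 and Defa34 higher in the irradiated cells. AY761184, Defa29 and Defa24, the last a gene of the rule, lie at similar levels. The unique share of Defa34 is 0%.

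The 250 bases before the RefSeq start (GRCm38.p6) are shown for 2 pairs of cluster genes, chosen after their values were seen, because the genes of each pair went opposite ways while their upstream sequences are nearly the same. Defa38 (Gm14851, chr8:21096051-21096300, minus strand) and Defa43 (Gm7861, chr8:21594466-21594715, minus strand) were 97.2% identical. Defa21 (chr8:21025295-21025544, plus strand) and Defa20 (chr8:21509008-21509257, plus strand) were 98% identical, and their levels went from 615 to 2910 CPM and from 51.5 to 12.4 CPM, with unique shares of 35.5% and 0%. Capitals mark TATAAA and CTTTGA, the core of the sequence bound by the Wnt effectors of the Tcf family, on either strand.
Defa38: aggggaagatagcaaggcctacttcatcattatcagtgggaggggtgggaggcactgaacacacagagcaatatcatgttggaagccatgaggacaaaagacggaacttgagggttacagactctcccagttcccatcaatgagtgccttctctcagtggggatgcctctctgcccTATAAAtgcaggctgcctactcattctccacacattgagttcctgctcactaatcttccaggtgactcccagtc
Defa43: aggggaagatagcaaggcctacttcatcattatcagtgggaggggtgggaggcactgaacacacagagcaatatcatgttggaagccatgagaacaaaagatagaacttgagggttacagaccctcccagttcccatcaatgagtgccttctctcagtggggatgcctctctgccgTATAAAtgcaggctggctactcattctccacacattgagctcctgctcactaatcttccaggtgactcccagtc
Defa21: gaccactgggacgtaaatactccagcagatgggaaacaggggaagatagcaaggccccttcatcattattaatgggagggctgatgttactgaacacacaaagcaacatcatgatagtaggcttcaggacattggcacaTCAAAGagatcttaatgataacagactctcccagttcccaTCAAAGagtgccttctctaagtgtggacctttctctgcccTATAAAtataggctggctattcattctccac
Defa20: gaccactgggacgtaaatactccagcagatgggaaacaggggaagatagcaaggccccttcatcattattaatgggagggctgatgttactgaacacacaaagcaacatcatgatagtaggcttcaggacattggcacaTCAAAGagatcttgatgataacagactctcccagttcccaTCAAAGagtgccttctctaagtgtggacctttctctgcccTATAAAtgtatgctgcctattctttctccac

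Of the 28 cluster genes, 16 had an entry of this kind. TATAAA was in 15 of the 16, against 12.4% of 32851 promoters of the same length, and CTTTGA was in 13 of the 16, against 13.8%. Many of these windows are near-copies, so the 16 do not count as separate cases. Those of Defa2 and Defa20, Defa21 and Defa22, Defa23 and Defa31, and Defa36 and Defa37 were 100% identical. The 2 motifs have no overlap with each other in the windows printed. Defa38, Defa42 (Gm7849) and Defa43 were the 3 without CTTTGA in this window. The windows of Defa42 and Defa43 were 100% identical, and the 2 genes stood at 29.3 and 38984 CPM in the adult cells, with the counting limit for Gm7849 that 0% of its words are unique.

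The other secreted products were mostly within 2-fold or higher. Of 25 tested genes of the non-defensin antimicrobial and granule list, 7 were higher and 3 lower, against 11.0% and 5.30% of all genes. The median log2 ratio of the list was 0.56. Reg3g, a C-type lectin that kills Gram-positive bacteria, ranged from 0 through 54.8 to 1321 CPM in the adult cells and from 17.8 through 1818 to 12221 in the irradiated ones. The ranges overlapped, and the summed level went from 154 to 2641 CPM (log2 ratio 4.09). At 8000 UMIs drawn from each cell, 20 of 66 adult cells (30.3%, exact interval 19.6 to 42.9) and 87 of 89 irradiated cells (97.8%, 92.1 to 99.7) had a Reg3g UMI. In the other deep cells that share was 8.7% and 25.9%.

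Reg3b, the lectin directed at Gram-negative bacteria, went from 30.5 to 759 CPM and from 8 of 66 to 76 of 89 cells at full depth. At equal depth 6 of 66 and 51 of 89 cells had a Reg3b UMI. Mmp7 ranged from 456 through 1286 to 3318 CPM in the adult cells and from 1064 through 3244 to 8305 in the irradiated cells (log2 ratio 1.23). Ang4 was lower, with cell medians of 6339 and 3818 CPM (log2 ratio -1.04). Over the alternatives the log2 ratio of Ang4 lay between -2.24 and -0.71, so it passed 2-fold only under some of them. Mmp7 had a range of 0.25 to 1.25, the lowest with the Olfm4-rich adult cells left out and the defensins, Lyz1, Itln1 and mitochondrial genes taken out of the total. Pigr, the receptor that carries immunoglobulin A into the lumen, went from 341 to 131 CPM, and Dmbt1, a scavenger receptor protein of mucosal surfaces, from 26.8 to 0.515 CPM. Clps, the colipase gene, Pnliprp2, a lipase, Ccl6, a chemokine, and Mptx2 stayed within 2-fold.

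Agr2, Tff3, Guca2a and Gpx2 completed the higher members of this list. Agr2, the disulfide isomerase needed to fold mucins, went from 297 to 3252 CPM, and its cell medians were 271 and 2042. Tff3, a trefoil peptide of goblet cells, went from 525 to 3506 CPM with cell medians of 497 and 1405. The goblet marker list was higher in 8 of 8 tested genes, against 11.0% of all genes. The list's share of a cell's UMIs ranged from 0.045% through 0.102% to 0.347% in the adult cells and from 0.103% through 0.405% to 17.3% in the irradiated cells. No goblet marker was at 0 in either group of cells. Zg16, a lectin of goblet granules, had a UMI in 4 of 66 and 87 of 89 cells at full depth, at 1.14 and 2101 CPM. Its median over the irradiated cells was 34.7 CPM and its highest value 90315, while in the other deep cells it stood at 48.9 and 8440 CPM. At equal depth 1 of 66 adult and 35 of 89 irradiated cells (39.3%) had a Zg16 UMI. In the other deep cells that share was 2.06% and 64.8%. The part of goblet cell RNA in the Paneth cell values was not tested. Without the 14 Defa29-low cells all 8 genes were still at least 2-fold higher, where 8.15% of all genes were, with a median log2 ratio of 2.26 in place of 3.09.

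The Defa29-low cells formed a separate group inside the irradiated library. Defa29 ranged from 0 to 932 CPM in these 14 cells and from 9351 to 60363 in the other 75, with no cell between, and no adult cell was under 7251 CPM. Defa24 (90474 to 215683 CPM) and Lyz1 (9928 to 90171 CPM) are genes of the rule, whose summed share chose the 14 cells. Their levels are therefore a description only. Mmp7 spanned 1083 to 8305 CPM in the 14 cells and 1064 to 6596 in the others. Defa30, also a gene of the rule, stood at 5224 CPM against 181377, and the ratio of Defa30 to Defa24 had a median of 0.00701 against 0.615. Gm14851 stood at 275 against 56484 CPM, Defa21 at 15.2 against 3179, and Mptx2 at 72.8 against 7347. Defa17, at 7159 and 9177 CPM, and Defa34, at 143 and 210 CPM, were alike in both.

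The same 14 cells held goblet products at high levels. Spink4, a secreted peptidase inhibitor of goblet and Paneth cells, stood at 60184 CPM against 11021 in the other irradiated cells. Tff3 stood at 24922 against 1519 CPM, Zg16 at 15096 against 895, Guca2a, the guanylin precursor, at 7692 against 239, and Fcgbp, a mucus protein, at 5190 against 157. The goblet list made up 1.18% to 17.3% of UMIs in each of the 14. Genes chosen after their values were seen, by their difference between the 2 groups, were Ahnak (132 against 1.97 CPM), Lgals3 (234 against 9.71 CPM), Tmsb4x (2421 against 129 CPM) and Ceacam1 (208 against 10.8 CPM).

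Depth, doublet scores and the cells next to the threshold were compared for these 14 cells. Their median depth was 40994 UMIs, against 104493 in the other 75 and 30555 in the 49 irradiated deep cells marked as goblet outside the rule. Those 49 cells held Zg16 at 152639 CPM, and their pooled Defa30 to Defa24 ratio was 0.0756. None of the 14 was among the 4.81% of irradiated cells marked for the highest doublet scores, where 3 of the other 75 were. The automatic doublet call had not worked, so the mark was a set share of cells and cannot decide whether droplets were mixed. Just below the threshold, the 6 irradiated cells with 10% to 15% of UMIs in the rule's genes had the same pattern, with Defa24 at 99514, Defa30 at 6599 and Zg16 at 65507 CPM. The 2 adult cells in that range had Defa30 at 35500 CPM and no Zg16 UMI. Whether single droplets here held RNA of 2 cells was not tested.

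**Figure D3:**
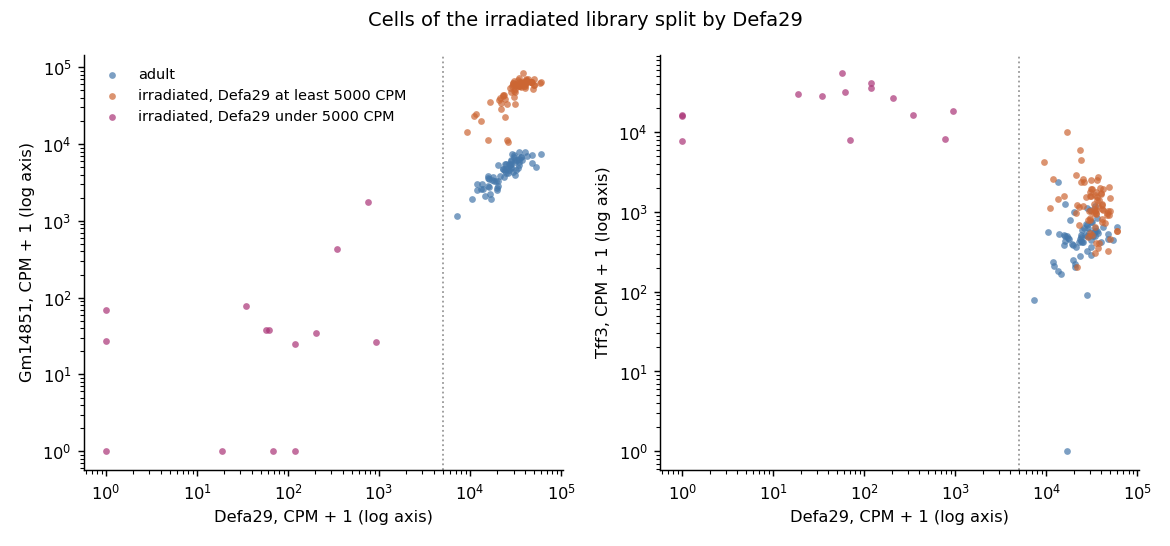
Defa29 against Gm14851 (left) and against Tff3 (right), as CPM + 1 per cell on log axes, with 1 point per cell and a dotted line at 5000 CPM. The 14 Defa29-low irradiated cells lie apart, with low Gm14851 and high Tff3; at equal Defa29 the other irradiated cells have more Gm14851 than the adult cells.

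Targets of p53 were higher after irradiation. Of 21 tested genes on the list, 13 were at least 2-fold higher and none lower, with a median log2 ratio of 1.52, where 11.0% of all genes were higher. Cdkn1a, the p21 inhibitor of cyclin-dependent kinases, ranged from 0 through 19.1 to 357 CPM in the adult cells and from 20.5 through 199.7 to 1444 in the irradiated ones. It had a UMI in 43 of 66 and 89 of 89 cells. At equal depth 28.8% of adult (exact interval 18.3 to 41.3) and 74.2% of irradiated cells (63.8 to 82.9) had a Cdkn1a UMI. Phlda3, an inhibitor of Akt signalling, went from 3.70 to 37.7 CPM, and at equal depth from 1 of 66 to 25 of 89 cells.

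Mdm2, the ligase that degrades p53, went from 4.56 to 22.3 CPM, Ccng1, a cyclin that feeds back on p53, from 27.6 to 92.2, Gdf15, a secreted stress hormone, from 5.70 to 40.6, and Bax, the effector of the mitochondrial death pathway, from 29.9 to 84.7. Pmaip1, which encodes the death protein Noxa, stood at 16.2 and 9.53 CPM, within 2-fold. Without the Defa29-low cells 11 of 19 were higher, where 8.15% of all genes were, and without the adult cells of high Olfm4 17 of 21, where 53.5% were. With the changed total as well, 14 of 21 were higher and 1 lower, where 16.2% and 2.12% of all genes were. The other deep cells had 20 of 35 tested p53 targets higher, where 4.14% of all genes were, and the enteroendocrine-marked cells 15 of 35, where 2.61% were. Their Cdkn1a levels were higher to begin with, at 445 and 1095 CPM in the other deep cells.

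Olfm4, a secreted glycoprotein of crypt base stem cells, had the lowest log2 ratio of the genes named. It ranged from 0 through 215 to 4965 CPM in the adult cells and had a UMI in 49 of 66. In the irradiated library 1 of 89 cells had a UMI, at 82.1 CPM, and the summed levels were 996 and 0.901 CPM (log2 ratio -9.03). At equal depth 39 of 66 adult cells (59.1%, exact interval 46.3 to 71.0) and 0 of 89 irradiated cells had an Olfm4 UMI, the latter with an exact upper limit of 4.06%. Olfm4 was also lower in the other deep cells, at 712 and 13.1 CPM.

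The adult cells divided by Olfm4. With 500 CPM as the division, 32 cells held 1902 CPM of Olfm4 and 34 held 29.4. The first group had a median of 49867 UMIs and 4.72% mitochondrial UMIs, and the second 19548 UMIs and 2.23%. Defa24, a gene of the rule, was 249154 CPM in the first and 331356 in the second. Both groups had Defa17 near the adult level, at 65850 and 83991 CPM. Genes of stem cells and of division went with Olfm4: Lgr5, the receptor that marks crypt stem cells, stood at 57.4 and 4.12 CPM, Ascl2, their transcription factor, at 40.3 and 0, Gkn3 at 83.3 and 1.18, and Stmn1, a microtubule regulator of dividing cells, at 274 and 5.30. Ribosomal protein genes took 91147 and 12880 CPM. Whether the Olfm4-rich droplets held RNA of a stem cell beside a Paneth cell was not tested. None of these 32 cells was among the 5.04% of adult cells marked for the highest doublet scores. The automatic doublet call had not worked, so the mark was a set share of cells and cannot decide this.

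**Figure D4:**
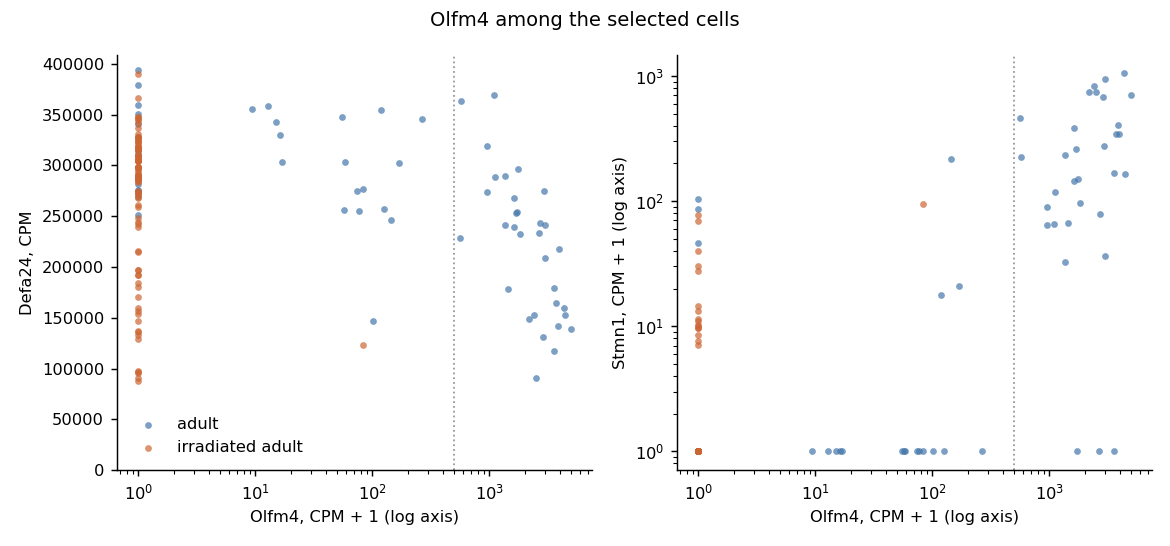
Olfm4 per cell, as CPM + 1 on a log axis, against Defa24 in CPM (left) and Stmn1 as CPM + 1 on a log axis (right), with 1 point per cell and a dotted line at 500 CPM. The adult cells to the right of the line have lower Defa24 and higher Stmn1, and 1 irradiated cell has an Olfm4 UMI.

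Stem and cell cycle genes were lower in the irradiated cells as lists. The crypt base stem list had 7 of 8 genes lower, the list of Notch, Kit and plasticity genes 8 of 12, the G2/M list 6 of 6 and the S phase list 6 of 7, against 5.30% of all genes. Mki67, a marker of cycling cells, went from 31.6 to 1.29 CPM, Top2a, the mitotic topoisomerase, from 41.9 to 1.93, and Pcna, the replication clamp, from 26.2 to 4.76. At equal depth 17 of 66 adult cells (25.8%) and 0 of 89 irradiated cells had at least 3 UMIs of G2/M genes. Without the 32 adult cells of high Olfm4, 1 G2/M gene and 2 S phase genes still reached 50 UMIs. None of these was lower and 1 S phase gene was higher. The crypt base stem list then had 1 of 5 genes lower and none higher. The Notch, Kit and plasticity list had 1 of 10 lower and 4 higher. In this setting 0.428% of all genes were lower and 53.5% higher. The summed S phase level then turned to a log2 ratio of 0.31, and the Notch, Kit and plasticity list to 0.36. Both were below the median log2 ratio of all genes in this setting, 1.05. The summed G2/M level stayed lower, at 52.4 CPM in the 34 remaining adult cells and 18.0 in the irradiated cells (log2 ratio -1.49).

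Further genes were among the 12 lowest. Cps1 and Otc, enzymes of the urea cycle, went from 145 to 3.73 and from 29.9 to 0.258 CPM. Clca3b went from 198 to 6.31, Jaml from 85.4 to 1.16, Mgst1, a glutathione transferase, from 40.2 to 0.644, and Pclaf, a partner of PCNA, from 29.9 to 0.644 CPM. Gkn3 and Aqp4, a water channel, had no UMI in the irradiated cells and were at least 113-fold and 56.0-fold lower, taking 3 UMIs in their place. The MHC class II genes H2-Ab1, H2-Eb1 and Cd74 were all lower, with log2 ratios of -2.72, -4.08 and -4.12. Without the cells of high Olfm4, Stmn1 had a log2 ratio of -0.34 and Clca3b of -0.67, within 2-fold. Under that setting Olfm4 was at -4.00, and Cps1, Otc, Jaml, Mgst1, Pclaf, Gkn3, Aqp4 and Cd74 stayed past 2-fold lower, between -1.98 for Aqp4 and -1.12 for Gkn3.

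Genes of the secretory machinery were in part higher, with counts that changed with the cells kept. Of 34 genes for ER stress and secretory load, 14 were higher and none lower, against 11.0% and 5.30% of all genes, with a median log2 ratio of 0.90, and the enteroendocrine-marked cells had none of 36 past 2-fold in either direction. Hspa5, the ER chaperone BiP, went from 224 to 505 CPM, Calr, which encodes calreticulin, from 151 to 360, Sdf2l1 from 19.9 to 71.1 and Xbp1, a transcription factor of the unfolded protein response needed by Paneth cells, from 51.3 to 129. Without the Defa29-low cells 7 of 34 were higher, against 8.15% of all genes, and Hspa5 then had a log2 ratio of 0.80. With the Olfm4-rich adult cells left out and the changed total, 1 was higher and 1 lower, where 16.2% and 2.12% of all genes were. Of 12 genes for granule release 6 were higher, namely Sytl2, Rab27a and Rab27b, which dock granules, Syt7, a calcium sensor of release, and Cpe and Chga, which enteroendocrine cells express strongly. On this list 4 of 11 were higher without cells holding enteroendocrine markers at 1% or more, where 8.86% of all genes were. The count was 3 of 12 without the Defa29-low cells, where 8.15% were, and 0 of 12 with the Olfm4-rich cells left out and the changed total, where 16.2% were.

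Transcription factors of the secretory lineage were low in level and in part higher. Of 18 tested genes for Paneth transcription and maturation, 6 were higher and 2 lower, against 11.0% and 5.30% of all genes. Without the Defa29-low cells 4 were higher and 3 lower, where 8.15% and 10.1% of all genes were. With the Olfm4-rich cells left out and the changed total 1 of 17 was higher and 2 lower, where 16.2% and 2.12% of all genes were. Atoh1, which commits cells to the secretory fate, went from 13.95 to 42.8 CPM, Spdef, a factor of goblet and Paneth maturation, from 17.7 to 42.9, and Foxa3 from 33.6 to 71.9. Sox9, required for Paneth cells to form, was within 2-fold at 55.8 and 74.1 CPM. Ephb3, the receptor that keeps Paneth cells at the crypt base, went from 32.5 to 10.0 CPM, and Rnf186, a ubiquitin ligase, from 25.9 to 2.70.

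Few niche ligands could be measured. Of 20 genes on that list, 4 reached 50 UMIs. Wnt3, the Wnt ligand made by Paneth cells, was within 2-fold at 29.0 and 45.7 CPM, and Areg, an EGF family ligand, at 11.96 and 24.6. Areg stood at 189.6 CPM in the Defa29-low cells and 9.29 in the other 75 irradiated cells, which is below the adult level. Dll4, a Notch ligand, was higher at 1.14 and 9.79 CPM, and Hbegf, an EGF family ligand, lower at 53.3 and 25.4. Egf and Wnt3a were among the 16 genes that did not reach 50 UMIs.

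Genes of regenerating epithelium were higher in 6 of 9 and lower in 1, against 11.0% and 5.30% of all genes. Anxa2, an annexin, went from 3.70 to 101 CPM, Krt7, a keratin, from 43.6 to 188, and Ly6a, which encodes Sca-1, from 0.570 to 15.8. Clu, a chaperone of regenerating stem cells, had no UMI in the adult cells and stood at 10.4 CPM in the irradiated ones. Of its 81 UMIs 60 were in the 14 Defa29-low cells, where it stood at 91.0 CPM against 2.96 in the other 75, and Anxa2 stood at 798 against 36.3 CPM. Without the Defa29-low cells only 5 of these genes reached 50 UMIs. Of the 5, 3 were higher and 1 lower, where 8.15% and 10.1% of all genes were. Vim and S100a6, further genes among the 12 highest, went from 0.570 to 49.1 and from 9.40 to 275 CPM, and they stood at 414 and 2157 CPM in the Defa29-low cells and at 15.2 and 100.6 in the other 75. Wfdc18 went from 0.854 to 32.8 CPM with a UMI in 2 of 66 and 47 of 89 cells at full depth. R3hdml, with no adult UMI and 51 of 89 irradiated cells with one, was at least 26.1-fold higher, taking 3 UMIs in the adult cells.

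Immune and stress lists differed in how many genes passed 2-fold when all selected cells were used, where 11.0% of all genes were higher and 5.30% lower. Of 12 MHC class I genes 1 was higher and 3 lower, the latter being the proteasome genes Psmb8, Psmb9 and Psme1. Of 10 interferon genes 3 were higher, Isg15, Zbp1 and Irf7, and of 14 autophagy and necroptosis genes 1, which was Zbp1 again. The inflammatory list had 2 of 6 higher, Socs3 and Cxcl16, and 1 lower, the chemokine Ccl25, which went from 59.8 to 4.38 CPM and in the other deep cells from 312 to 45.4. None of 16 immediate early genes differed by 2-fold, and 1 of 12 heat shock genes, Hspb1, was higher. Of 18 oxidative stress genes 4 were higher, Gpx2, Ftl1, Gclc and Mt2, and of 12 glycolysis genes 3, Eno1, Gapdh and Aldoa. Without the Olfm4-rich adult cells 7 of 10 interferon genes and 4 of 5 inflammatory genes were higher, where 53.5% of all genes were, and with the changed total 6 of 10 and 3 of 5, where 16.2% were. Lists of gut position, general epithelium, tuft and enterocyte genes had 1 of 5, 2 of 6, 2 of 5 and 2 of 5 higher, and gut position and enterocyte genes 1 lower each.

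**Figure D5:**
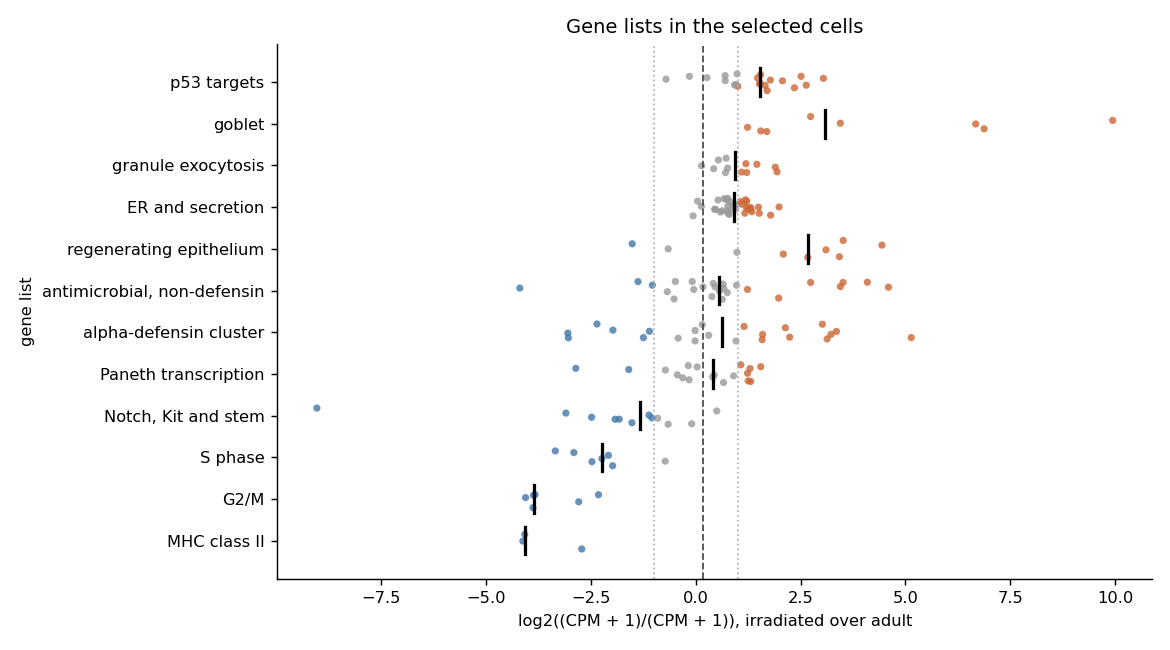
Log2 ratio of irradiated over adult cells for each gene with at least 50 UMIs in 12 gene lists, with 1 point per gene, a black bar at each list's median, a dashed line at the median of all genes (0.16) and dotted lines at 2-fold. The p53 and goblet lists lie to the right of the dashed line and the S phase, G2/M and MHC class II lists to the left.

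Transcripts of enteroendocrine marker genes were found in every selected cell. Of 18 enteroendocrine markers 16 were higher and none lower in the irradiated cells, against 11.0% and 5.30% of all genes, and no marker was at 0 in either library. Cck, a gut hormone, had a UMI in 65 of 66 and 89 of 89 cells at full depth, at 121 and 1166 CPM, and in the other deep cells it stood at 21776 and 41442. At equal depth 44 of 66 and 65 of 89 selected cells had a Cck UMI. The list's share ranged from 0.0217% through 0.0990% to 3.86% in the adult cells and from 0.0396% through 0.111% to 7.15% in the irradiated cells, with 1 and 16 cells at 1% or more. Gcg and Tac1, both among the 12 highest genes, went from 6.83 to 158 and from 2.56 to 73.4 CPM. With the cells at 1% or more removed, 7 of 15 markers were higher and 1 lower, where 8.86% and 8.51% of all genes were. The part of free RNA or mixed droplets in these values was not tested. Immune markers were at 0 for 14 of 16 genes in each library, red cell markers for 5 of 5, and stromal markers for 9 of 11 adult and 6 of 11 irradiated.

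Mitochondrial and ribosomal genes moved with the subsets. Of 12 mitochondrial genes 9 were lower and none higher, against 5.30% and 11.0% of all genes, and the list took 28612 and 12545 CPM. Without the Olfm4-rich adult cells no mitochondrial gene was lower and 1 was higher, where 0.428% and 53.5% of all genes were. Of 89 ribosomal protein genes 13 were lower and 3 higher, against the same 5.30% and 11.0%, and the median log2 ratio was -0.48. Without the Olfm4-rich adult cells 81 of 88 were higher and none lower, where 53.5% of all genes were higher. Rpl10, a ribosomal protein gene, stood at 36.7 and 381 CPM, and in the other deep cells at 96.3 and 1004.

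The reporter was scarce in these cells. An eGFP UMI was found in 2 of 66 adult and 23 of 89 irradiated cells at full depth. At equal depth it was found in 0 of 66, with an exact upper limit of 5.44%, and in 3 of 89 (3.37%, exact interval 0.701 to 9.54). In the other deep cells the share at equal depth was 1.95% and 12.1%. Bmi1 itself had a UMI at equal depth in 1 of 66 and 4 of 89 cells, against 11.4% and 14.1% of the other deep cells.

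The cells also varied among themselves in their granule genes. At 8000 UMIs per cell, AY761184 had a variance over mean of 89.6 in the adult and 141 in the irradiated cells, and Mptx2 of 39.1 and 63.1, where the irradiated values include the 14 Defa29-low cells. Mptx2 spanned 13.9 to 32346 CPM over the adult cells. Gm14851 and Defa29 had a Spearman correlation of 0.87 over the 66 adult cells and 0.85 over the 89 irradiated cells, the latter with the Defa29-low cells included. Gm7861 and AY761184 had 0.81 and 0.76. These correlations are descriptions over cells of 1 library that share its depth and its free RNA.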

How the data were processed

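The deposited matrices hold raw UMI counts per gene and cell barcode for 4 libraries, 1 per group. Per the submitters' processing notes the authors used Cell Ranger 3.1.0 with the mouse genome mm10, and the rule for selecting barcodes is not given in the sources used here. Per the labels' protocols the libraries were made with 10x Genomics chemistry from dissociated intestinal epithelial cells. Total counts were 90674425 UMIs at embryonic day 12.5, 77677622 at embryonic day 17.5, 38648331 in the adult and 50761353 in the irradiated library.

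The members and the gene lists were chosen with earlier results of these data known. Counts of the selected cells were summed per library, and levels carry exact Poisson 95% intervals and shares exact Clopper-Pearson 95% intervals, which cover counting error only. A gene was compared when it had at least 50 UMIs in either library, with 1 CPM added, and was counted from 2-fold. For equal depth each cell was thinned to 8000 UMIs. Named genes were the 12 highest and 12 lowest, the 15 highest over other deep cells, the 10 most variable, and members of the lists, leaving out mitochondrial, ribosomal and predicted genes apart from list members. Endocrine-marked cells had Chga and Chgb at 0.5% of UMIs or more, and goblet-marked cells had Muc2, Fcgbp, Zg16 and Clca1 at 1% or more, both outside the rule. Scrublet's automatic call marked 0.106% and 0.0314% of cells and had not worked, so the highest scores were marked at 0.8% per 1000 barcodes, without removal. Of 31054 feature IDs, 31011 matched GENCODE M21, and promoters came from RefSeq (GRCm38.p6). Counts were simulated for this comparison (4935 genes) with counting error only, without variation between cells, subsets or libraries. All (100%) of the genes raised 4-fold were called, 94% of genes lowered to 0.25 and 86% of genes lowered to 0.4, with 0% of 2267 unchanged genes. These shares therefore say nothing of calls that move with the cells kept or with the library. Software was scanpy 1.11.5 with pandas 2.3.3 and scipy 1.17.1 on Python 3.11.15 and, for TMM factors only, edgeR 4.0.16. Alternatives covered the cell filters, the removal of marked cells, the denominator, the scaling, the pseudocount, the filter on counts and the thinning.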

Additional observations from a re-analysis of the deposited data

How the results depend on the processing

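No paired analysis was possible because each group has 1 library. Of 40 named genes past 2-fold, 40 kept their direction under every alternative run and 33 stayed past 2-fold. The exceptions were Ang4, Clca3b, Defa21, Hspa5, Mmp7, Muc2 and Stmn1. Not all gene lists were run through the alternatives. The crypt base stem and enteroendocrine lists were among those left out, with summed log2 ratios of -4.38 and 2.00 over all selected cells. Of the lists that were run, 9 were past 2-fold in summed level. Of these, 7 kept their direction and 3 stayed past 2-fold (goblet, G2/M and regenerating epithelium). The alternatives on Defa29 and Olfm4 were chosen after seeing the data.

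The counts of 549 higher and 265 lower genes moved with the cells kept. There were 359 higher genes without cells holding endocrine markers at 1% or more, 348 higher and 433 lower without Defa29-low cells, 2622 and 21 without Olfm4-rich adult cells, and 1700 and 25 without both. With the Olfm4-rich cells left out and the defensins, Lyz1, Itln1 and mitochondrial genes taken out of the total, 787 were higher and 103 lower. Thinning left 140 higher and 45 lower of 639 genes, a pseudocount of 10 CPM 175 and 157, no filter 982 and 1028, a minimum of 20 UMIs 553 lower, and a minimum of 200 UMIs 236 and 69. The share of these calls that were higher was 67.4%, against 51.0% without cells holding endocrine markers at 1% or more, 44.6% without Defa29-low cells, 99.2% without Olfm4-rich cells, 98.6% without both, 88.4% with the changed total as well, 52.7% at 10 CPM, 48.9% with no filter and 77.4% at 200 UMIs. Among the gene lists that were run, those at least 2-fold higher in summed level numbered 4. They were 2 without cells holding endocrine markers at 1% or more, 12 without Olfm4-rich cells and 10 without both. Lists lower numbered 5, and 1, 1 and 3 without Olfm4-rich cells, without both, and with the changed total. The summed S phase log2 ratio of -2.44 turned to 0.31 without Olfm4-rich cells and 0.080 without both. The Notch, Kit and plasticity list turned from -3.08 to 0.36 and 0.085. The median log2 ratio of all genes was 1.05 and 0.88 in these settings, against 0.16 with all selected cells. The cause was not tested.

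The share of deep cells that met the rule was 4.77% and 9.15% in the adult library at minimums of 5000 and 12000 UMIs, and 7.25% in the irradiated one at 12000. With all cells holding endocrine markers at 1% or more removed it was 21.96% and 32.2%. Without thinning, 74.2% of adult cells had an Olfm4 UMI, 12.1% of adult and 84.3% of irradiated cells a Phlda3 UMI and 25.8% of irradiated cells an eGFP UMI. At 4000 UMIs 12.4% of irradiated cells had a Phlda3 UMI. The median depth of 41378 and 99836 UMIs limits the genes of a few CPM.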
